A study of Mus musculus with 18 samples.

Results

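The response of the liver to inhaled hydrogen in septic mice was set against the response of the lung, gene by gene. The 12 libraries of these organs, of 18 in the series, fell into 4 groups of 3, which were H2 liver, control liver, H2 lung and control lung. All came from male C57BL/6 mice, 9 weeks old, that had undergone cecal ligation and puncture (an operation that lets gut bacteria into the abdomen and so causes sepsis), and organs were taken 24 h later. H2 mice breathed 7% hydrogen from surgery onwards in a shared box, so housing and gas go together, and control mice had the surgery without the gas. No genetic modification is named in the labels, and unoperated animals are not analysed here. For each gene the difference was (H2 liver minus control liver) minus (H2 lung minus control lung) on log2(FPKM + 1), where FPKM counts sequenced fragments per transcript length and per library size. A positive difference means that H2 over control was higher in the liver than in the lung, whichever organ moved. Of 24346 gene symbols, 9551 had a mean of at least 1 FPKM in each organ and were compared. Just inside that limit lay H2-T24 and Klhl26, each with a liver mean of 1.001 FPKM, and just outside it Reln at 0.9998 FPKM and Adamts9 at 0.9997 FPKM. The labels do not say which organs came from one mouse, nor that the 3 libraries of a group were 3 animals, so p-values measure the spread between these libraries.

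In sepsis the liver and the lung respond to the same circulating signals with different cells. Hepatocytes, the main cells of the liver, release acute-phase proteins into the blood, and Kupffer cells, the resident macrophages of the liver sinusoids, clear bacteria and dead cells. The lung holds alveolar macrophages and a large pool of neutrophils in its capillaries, and it recruits monocytes through chemokines and their receptors.

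Libraries of each organ expressed its markers, with the albumin gene Alb between 9335 and 21978 FPKM in the liver and at most 5.95 FPKM in the lung. The depth implied by the smallest FPKM steps was 10.1 to 16.3 M fragments. The 2 liver libraries numbered 1 held traces of lung and heart transcripts. The club cell gene Scgb1a1 measured 5.07 FPKM in H2 liver 1 and 4.30 FPKM in control liver 1, and it was listed at 0 in the other 4 liver libraries. On a scale along the treatment axis, where 0 is the mean of the other control libraries of the organ and 1 that of its other H2 libraries, H2 libraries scored 0.70 to 0.918 in both organs. Control liver 2 scored 0.797 and control lung 3 scored 0.763, so 1 control library in each organ lay near the H2 libraries, while the other 4 controls scored −0.456 to 0.187. Control lung 3 was also the only library with the brown fat gene Ucp1 above 0.1 FPKM, at 74.5 FPKM. In bulk tissue, fewer cells of a type and less RNA per cell cannot be told apart.

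Across the 9551 genes, changes with hydrogen leaned the same way in both organs, and few genes differed between them. The change had the same sign in the liver and the lung for 6365 genes (66.6%), with Pearson's r of 0.401 and Spearman's rho of 0.439 across genes, which are not independent replicates. The SD of the change over genes was 0.43 in the liver and 0.41 in the lung, and the median difference was 0.02. With limma's moderated test and Benjamini-Hochberg adjustment over all genes, 5 genes (0.0524%) differed between the organs at an adjusted p under 0.05, of which 4 had a positive difference (0.0419%) and 1 a negative one (0.0105%). At an unadjusted p under 0.05 there were 1227 genes, 736 with a positive difference (7.71%) and 491 with a negative one (5.14%). A positive sign was seen for 52.7% of genes. Groups were apart in both organs for 83 genes that were higher with hydrogen in the liver and lower in the lung (0.869%), and for 63 genes in the opposite case (0.66%). They were apart in both organs for 250 genes higher in both (2.62%) and for 393 genes lower in both (4.11%).

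**Figure D1:**
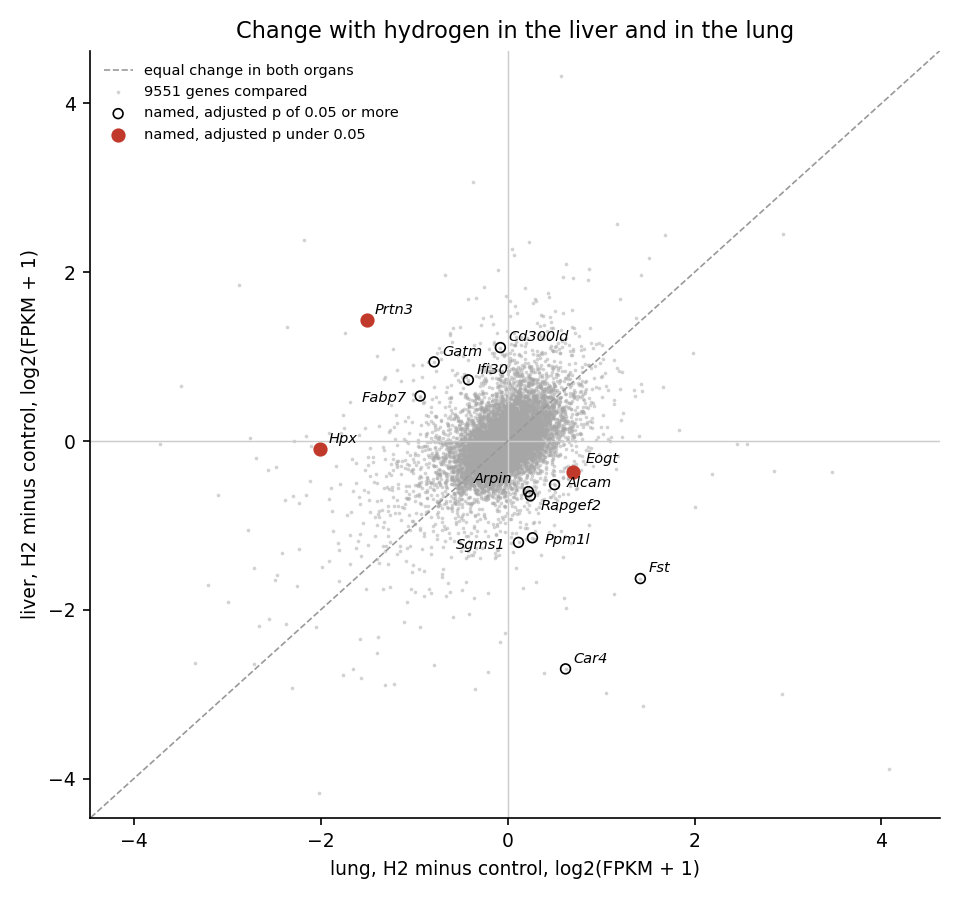
Change with hydrogen (H2 minus control, log2(FPKM + 1)) in the liver against that in the lung for 9551 genes, each a grey point, with 14 genes named by rule circled or filled. Prtn3 lies at the upper left, with changes of 1.43 in the liver and −1.51 in the lung, and Hpx near the horizontal line with a lung change of −2.01.

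The count rests on single libraries. Without control liver 2, 625 genes differed between the organs, and without control lung 3, 287 did. Leaving out any of the other 10 libraries gave 3 to 8 genes. Without the libraries numbered 1 in all groups, 1 gene differed and none of the 5 passed, with adjusted p-values of 0.1909 to 0.2132 by limma on 2 libraries per group. The differences in that fit kept their signs, at 2.69 for Prtn3, 1.77 for Hpx and −1.16 for Eogt. Prtn3 passed in each of the 12 fits that left out 1 library, Hpx in 7 of 12 and Eogt in 3 of 12. Hpx did not pass without H2 liver 2, H2 liver 3, control liver 1, control liver 3 or H2 lung 2 (adjusted p of 0.0559 to 0.0595). Eogt passed without H2 liver 1, control liver 2 or control lung 3, and its adjusted p was 0.0607 to 0.213 without any of the others.

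**Figure D2:**
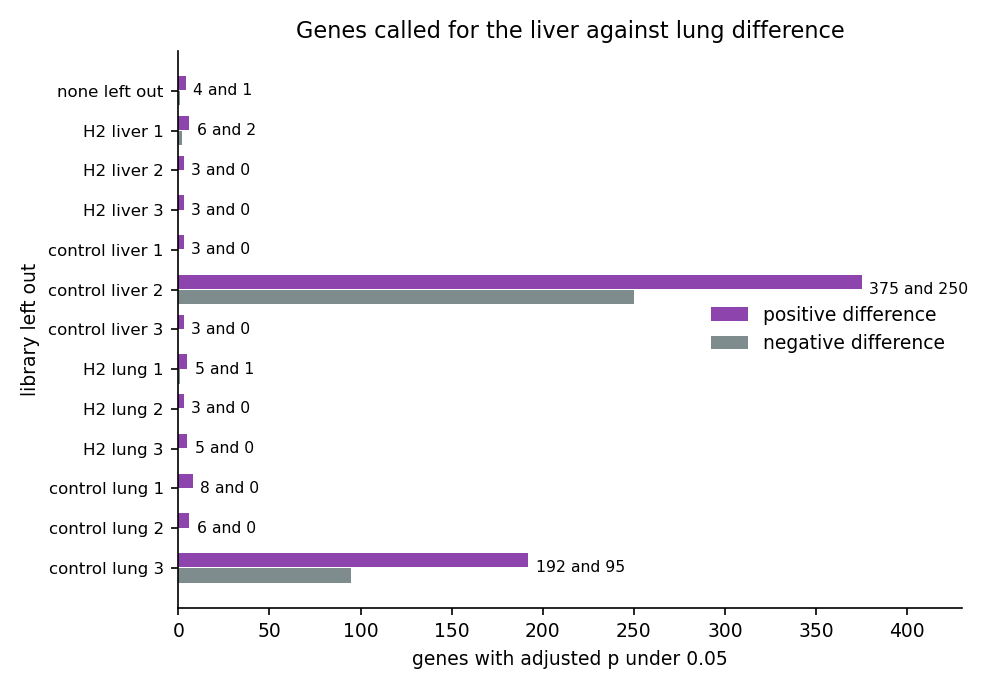
Number of genes with an adjusted p under 0.05 for the liver against lung difference, with no library left out and with each library left out in turn. Bars give positive and negative differences, which number 375 and 250 without control liver 2 and 192 and 95 without control lung 3.

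Prtn3 had the largest difference of the 5, and it moved in opposite directions in the 2 organs. It encodes proteinase 3, a serine protease stored in the primary granules of neutrophils and also made by monocyte precursors. Prtn3 (chr10:79874476-79883174, plus strand, mm10) measured 2.09, 3.36 and 2.73 FPKM in H2 livers, against 0.196, 0.401 and 0.535 FPKM in control livers. In H2 lungs it measured 2.49, 3.87 and 3.16 FPKM, against 13.5, 13.7 and 6.63 FPKM in control lungs. All H2 livers were above all control livers and all H2 lungs below all control lungs. The mean of the control livers, 0.377 FPKM, lay below the limit of 1 FPKM. Prtn3 passed that limit through its H2 livers, with a mean of 2.725 FPKM. It rose in the liver by 1.43 ± 0.24 and fell in the lung, with a change of −1.51 ± 0.24 (log2, SE), and the difference was 2.94 ± 0.34 (adjusted p = 0.00868, limma). Control lung 3 held the lowest of the control lung values, and without it the difference was 3.25 ± 0.24.

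Other genes of the primary granules were too low in the liver to be compared. The neutrophil elastase gene Elane measured 0.292, 0.24 and 0.254 FPKM in H2 livers and 0, 0.215 and 0 FPKM in control livers. In the lung Elane measured 0, 0.313 and 0.083 FPKM in H2 libraries and 6.49, 4.79 and 1.25 FPKM in controls. The groups did not overlap in either organ, with H2 higher in the liver and lower in the lung. Of the genes compared, 11.3% were higher in H2 livers and 18.5% lower in H2 lungs without overlap. The liver values of Elane all lay near 0. Mpo, which encodes myeloperoxidase, was listed at 0 in the 3 H2 livers and at most 0.035 FPKM in control livers. Ctsg, which encodes cathepsin G, was listed at 0 in all 6 livers. Over the whole list of 25 neutrophil genes, the summed level was 36312 to 44279 FPKM in H2 livers and 41328 to 47098 FPKM in control livers, and 24143 to 37936 FPKM in H2 lungs and 30634 to 36786 FPKM in control lungs. In the liver that sum is carried by Hp and Lcn2, acute-phase genes that hepatocytes also express. Without them the other 23 genes summed to 114.6 to 221.5 FPKM in H2 livers and 145.3 to 373 FPKM in control livers, and to 20325 to 33705 FPKM in H2 lungs and 20798 to 30654 FPKM in control lungs. The H2 and control ranges overlapped in both organs. Of the 25 genes 12 were compared, 5 with a positive and 7 with a negative difference, and Prtn3 was the member called. The part of cell numbers in the Prtn3 result was not tested.

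Hpx fell in the lung, and its liver change did not pass. It encodes hemopexin, a plasma protein that binds free heme and is made mainly by hepatocytes in the acute-phase response. Hpx (chr7:105591613-105600137, minus strand, mm10) measured 34293, 32263 and 31716 FPKM in H2 livers, against 33236, 38273 and 33897 FPKM in control livers. In H2 lungs it measured 4.89, 4.11 and 3.14 FPKM, against 24.8, 15.2 and 18.4 FPKM in control lungs. The liver groups overlapped and every H2 lung lay below every control lung. The liver change was −0.10 ± 0.17, the lung change −2.01 ± 0.17 (adjusted p = 0.000895), and the difference 1.91 ± 0.24 (adjusted p = 0.0129, limma). Alb, the albumin gene of hepatocytes, was low in the lung, at 1.36, 0.515 and 0.192 FPKM in H2 libraries and 0.998, 5.95 and 0.162 FPKM in controls, and its groups overlapped. Over the list of 25 hepatocyte genes, the summed level was 20.6 to 33.6 FPKM in H2 lungs and 58.5 to 91.1 FPKM in control lungs. Without Arg1, which macrophages also express, the other 24 genes summed to 16.6 to 29.7 FPKM in H2 lungs and 23.6 to 54.7 FPKM in control lungs, ranges that overlap. In the liver the sum over the 25 genes was 61141 to 68825 FPKM in H2 libraries and 58424 to 87573 FPKM in controls. The part of hepatocyte transcripts in the lung result for Hpx was not tested.

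Eogt was the gene with a negative difference. It encodes a glycosyltransferase that adds N-acetylglucosamine to epidermal growth factor repeats of extracellular proteins, among them Notch receptors. Eogt (chr6:97110024-97149182, minus strand, mm10) measured 2.34, 1.87 and 1.83 FPKM in H2 livers, against 2.71, 2.71 and 3.16 FPKM in control livers. In H2 lungs it measured 20.5, 23.6 and 22.7 FPKM, against 12.1, 13.3 and 14.5 FPKM in control lungs. The groups overlapped in neither organ. It rose in the lung by 0.70 ± 0.11, its liver change was −0.36 ± 0.11 (adjusted p = 0.0951), and the difference was −1.07 ± 0.15 (adjusted p = 0.0430, limma).

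**Figure D3:**
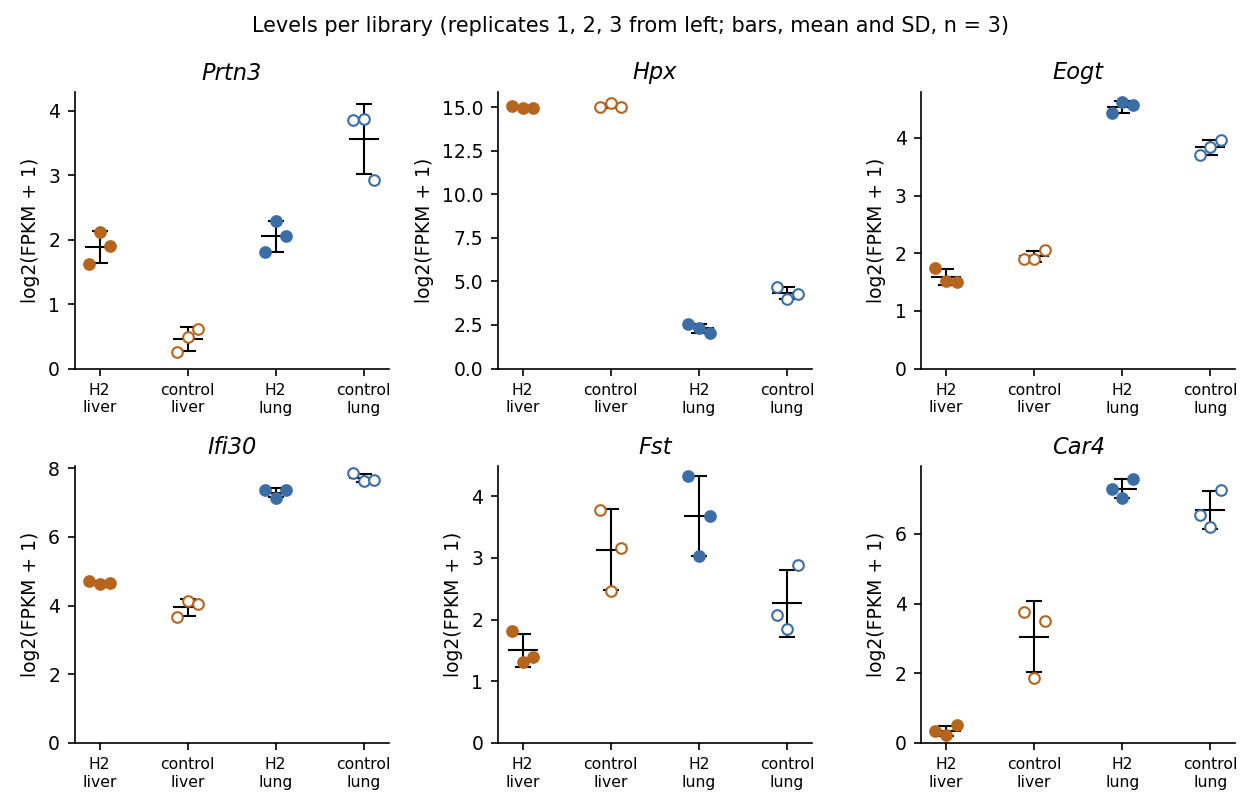
Level of the called genes Prtn3, Hpx and Eogt and of Ifi30, Fst and Car4, which did not pass, in each library, as log2(FPKM + 1), in H2 liver, control liver, H2 lung and control lung (filled points H2, open points control, bars mean and SD of 3 libraries). Fst is low in H2 livers and high in H2 lungs against their controls.

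Promoters are shown for 4 genes that fell in the lung, for Prtn3 and Hpx because they carry the difference, and for Saa2 and Mt2 because they had the largest lung changes of their lists. Each window runs from 250 bases before to 50 bases after the RefSeq start, 5′ to 3′, in build GRCm38.p6, and 11 of 14 genes named by rule had one. In Prtn3 the capitals mark the only match to GAGGAA, a core letter string of sites bound by the myeloid factor PU.1. In Hpx and Saa2 they mark the only match to TTGCNNAA, a core string of sites bound by C/EBP factors, which act in the acute-phase response. In Mt2 they mark 6 matches to TGCNCNC, a string looser than the core of metal response elements, so not every match need be such a core.
Prtn3, chr10:79879417-79879716, plus strand: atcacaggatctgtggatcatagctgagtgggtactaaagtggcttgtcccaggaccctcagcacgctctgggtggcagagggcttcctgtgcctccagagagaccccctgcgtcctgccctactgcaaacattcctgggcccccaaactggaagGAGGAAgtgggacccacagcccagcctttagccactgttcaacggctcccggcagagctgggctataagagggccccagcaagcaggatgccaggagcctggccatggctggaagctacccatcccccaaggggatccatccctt
Hpx, chr7:105600067-105600366, minus strand: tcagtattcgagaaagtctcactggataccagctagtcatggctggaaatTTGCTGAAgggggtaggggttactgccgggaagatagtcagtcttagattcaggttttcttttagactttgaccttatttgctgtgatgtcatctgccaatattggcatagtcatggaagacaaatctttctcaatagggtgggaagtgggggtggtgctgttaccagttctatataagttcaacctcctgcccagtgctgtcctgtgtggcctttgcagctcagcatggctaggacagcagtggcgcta
Saa2, chr7:46751583-46751882, plus strand: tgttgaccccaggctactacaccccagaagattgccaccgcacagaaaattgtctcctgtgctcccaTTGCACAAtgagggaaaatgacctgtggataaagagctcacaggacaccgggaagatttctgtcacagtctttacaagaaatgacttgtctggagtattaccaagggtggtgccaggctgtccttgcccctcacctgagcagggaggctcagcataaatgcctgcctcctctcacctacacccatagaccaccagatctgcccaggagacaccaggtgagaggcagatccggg
Mt2, chr8:94172368-94172667, plus strand: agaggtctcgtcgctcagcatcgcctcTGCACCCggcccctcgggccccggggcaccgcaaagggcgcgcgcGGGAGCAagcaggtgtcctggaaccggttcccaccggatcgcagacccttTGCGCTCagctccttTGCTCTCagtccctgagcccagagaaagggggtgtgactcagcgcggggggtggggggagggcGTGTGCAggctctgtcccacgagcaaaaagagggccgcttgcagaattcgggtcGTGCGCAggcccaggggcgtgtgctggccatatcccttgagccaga
Both strands were searched. Of 32851 promoters of the same length, 28.3% held GAGGAA, 10.8% held TTGCNNAA and 51.0% held TGCNCNC, while 0.225% held at least 6 matches to TGCNCNC. A match describes the letters of the window and is not evidence of binding.

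Of the genes next in line by p, which did not pass, the positive ones were Fabp7, Cd300ld, Gatm and Ifi30 (adjusted p of 0.0587, 0.0587, 0.0587 and 0.0710, limma). Ifi30 encodes the lysosomal thiol reductase of antigen processing. It measured 25.2, 23.7 and 24.4 FPKM in H2 livers against 11.7, 16.5 and 15.5 FPKM in control livers, and 164.0, 139.1 and 165.6 FPKM in H2 lungs against 229.6, 196.2 and 202.0 FPKM in control lungs. Cd300ld, a receptor gene of myeloid cells, measured 3.36, 3.35 and 3.23 FPKM in H2 livers against 1.07, 1.19 and 0.764 FPKM in control livers, with overlapping lung groups. Gatm encodes the enzyme of the initial step of creatine synthesis. Its changes were 0.94 in the liver and −0.79 in the lung, with groups apart in both organs. In the liver Gatm passed the limit of 1 FPKM through its H2 libraries, with a mean of 2.225 FPKM against 0.6933 FPKM in controls. Fabp7, a fatty acid binding protein gene, had changes of 0.53 and −0.94, also with groups apart in both.

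The negative genes next in line were Sgms1, Alcam, Rapgef2, Car4, Fst, Ppm1l and Arpin (adjusted p of 0.0799 to 0.106, limma). Fst encodes follistatin, which binds and neutralises activins. It measured 2.50, 1.48 and 1.61 FPKM in H2 livers against 12.7, 4.49 and 7.95 FPKM in control livers, and 19.1, 7.21 and 11.9 FPKM in H2 lungs against 3.20, 2.59 and 6.36 FPKM in control lungs. Its groups were apart in both organs, low with hydrogen in the liver and high with hydrogen in the lung, and the difference was −3.05 ± 0.55. Car4 encodes a membrane carbonic anhydrase of lung capillaries, and its difference was −3.32 ± 0.59. Car4 measured 0.254, 0.156 and 0.413 FPKM in H2 livers against 12.6, 2.65 and 10.4 FPKM in control livers, and it fell in the liver (adjusted p = 0.0320, limma). In the liver Car4 passed the limit of 1 FPKM through its controls, with a mean of 8.522 FPKM against 0.2743 FPKM in H2 livers. Scgb1a1 was listed at 0 in control liver 3 and at 4.30 FPKM in control liver 1. The part of lung tissue in the Car4 result was not tested. Sgms1, which encodes a sphingomyelin synthase, measured 10.4, 10.3 and 10.4 FPKM in H2 livers against 26.5, 21.6 and 27.6 FPKM in control livers, and its lung groups overlapped. Rapgef2, Ppm1l and Arpin also fell in the liver (adjusted p of 0.0369, 0.0320 and 0.0397), with lung changes of 0.24, 0.27 and 0.22. Alcam, an adhesion molecule gene, had changes of −0.52 in the liver and 0.50 in the lung.

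The organs' own comparisons give the frame for these differences. In the same fit 118 genes (1.24%) changed in the liver, 64 higher (0.67%) and 54 lower (0.565%) with hydrogen, and 15 genes (0.157%) changed in the lung, 2 higher (0.0209%) and 13 lower (0.136%). Which organ had more called genes depended on the setting. The liver and lung counts were 234 and 6 with a pseudocount of 0.1, 25 and 221 with a pseudocount of 5, and 48 and 794 without a filter. Groups were apart, higher and lower with hydrogen, for 11.3% and 13.4% of genes in the liver. In the lung these shares were 11.6% and 18.5%. The 64 genes that rose in the liver had a median change of 1.02 there and 0.10 in the lung, where 41 had the same sign. The 54 genes that fell in the liver had medians of −1.02 there and −0.18 in the lung, where 40 had the same sign. The 13 genes that fell in the lung had medians of −1.81 there and −0.07 in the liver, where 9 had the same sign. These medians were taken over genes chosen for their change in the calling organ, so the smaller value in the other organ is no test of a difference. The shared fit pools the spread of both organs, so a gene has the same SE in the liver and in the lung. Fitted alone on 6 libraries, the liver had 2 called genes and the lung none by limma, with 1995 and 2228 genes at an unadjusted p under 0.05. The lowest adjusted p of the lung fitted alone was 0.106 by limma.

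**Figure D4:**
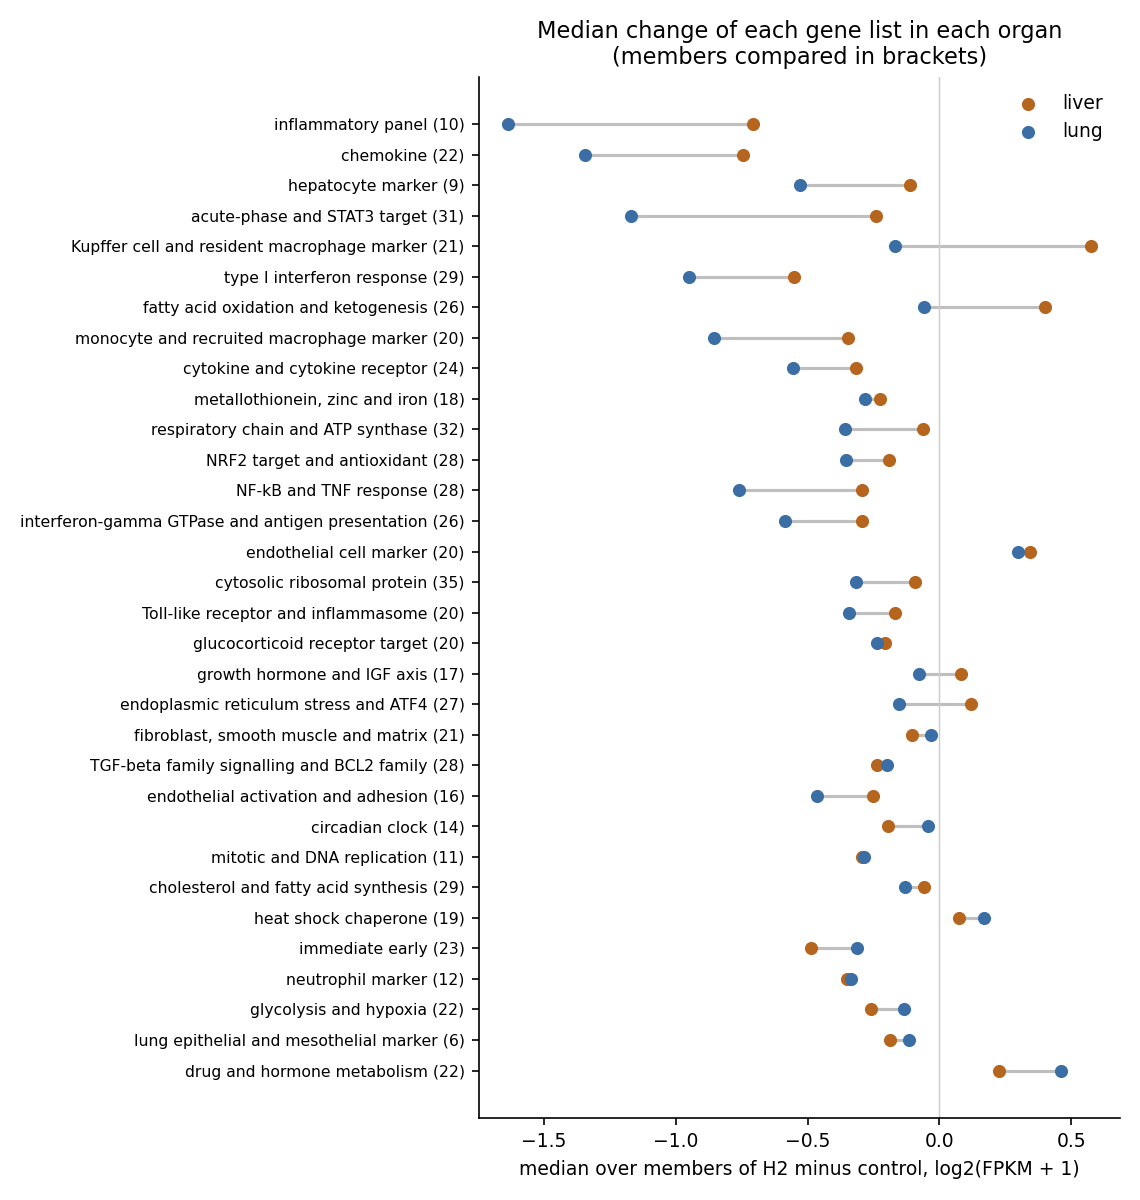
Median change with hydrogen (H2 minus control, log2(FPKM + 1)) over the compared members of each gene list with at least 5 of them, in the liver and in the lung, sorted by the median difference. The widest gaps are those of the inflammatory panel and of the acute-phase, Kupffer cell and resident macrophage, and chemokine lists. The lung point lies left of the liver point in most lists.

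The acute-phase genes were lower in H2 than in control lungs by their median, with a smaller median change in the liver. Of 34 listed acute-phase and STAT3 target genes, 31 were compared, 28 with a positive and 3 with a negative difference, 7 of them at an unadjusted p under 0.05, all positive. The shares over all genes, for this and the later lists, were 7.71% on the positive side and 5.14% on the negative side. Their median change was −0.24 in the liver and −1.17 in the lung, and their median difference 0.64, against 0.02 over all genes. In the lung 19 of the 31 had all H2 libraries below all controls (18.5% of all genes did). Beside Hpx, Saa2 and Orm1 fell in the lung and Serpina3f in the liver, and no member other than Hpx passed for the difference.

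Saa2, which encodes a serum amyloid A protein, measured 84852, 75624 and 85397 FPKM in H2 livers, against 70961, 89621 and 80974 FPKM in control livers. In the lung it measured 24.6, 30.2 and 28.9 FPKM in H2 libraries, against 403.7, 174.7 and 102.0 FPKM in controls. The liver groups overlapped and the lung groups did not, and the difference was 2.78 ± 0.51 (adjusted p = 0.0909, limma). Saa1 showed the same order, with lung values of 193.0, 166.6 and 165.9 FPKM in H2 libraries against 1124.5, 387.6 and 339.6 FPKM in controls, and a difference of 1.67 ± 0.48. Saa1 and Saa2 are near-identical copies, so reads can be split between them and each value is uncertain. Orm1, the gene of the plasma carrier orosomucoid, measured 22.5, 26.3 and 16.3 FPKM in H2 lungs against 164.0, 49.5 and 118.5 FPKM in control lungs, and its difference was 2.22 ± 0.48.

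The Kupffer cell and resident macrophage genes were higher in H2 livers than in control livers by their median, and the lung median lay below 0. Of 24 listed genes 21 were compared, 16 with a positive and 5 with a negative difference, 10 and 2 of them at an unadjusted p under 0.05. Their median change was 0.57 in the liver and −0.17 in the lung. In the liver 13 of the 21 had all H2 libraries above all controls (11.3% of all genes did), and 2 in the lung (11.6% of all genes). The summed level of the 24 genes did not separate the groups, at 534.4 to 638.3 FPKM in H2 livers and 480.9 to 606.2 FPKM in control livers, and at 1830 to 2111 FPKM in H2 lungs and 2000 to 2758 FPKM in control lungs. A large part of the lung sum is Chil3, at 806.9 to 964.3 FPKM in H2 lungs and 787.2 to 975.9 FPKM in control lungs. Cd5l, C1qb, C1qc and Mrc1 rose in the liver, Car4 and Chil3 fell there, and none passed in the lung or for the difference. Car4 and Chil3 were far higher in the lung than in the liver, so the list is not one of Kupffer cells alone.

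Cd5l encodes a secreted protein of tissue macrophages and measured 61.5, 57.5 and 41.5 FPKM in H2 livers, against 8.23, 19.9 and 12.3 FPKM in control livers. In the lung it measured 1.22, 0.791 and 1.12 FPKM in H2 libraries, against 0.572, 3.77 and 3.53 FPKM in controls. The liver groups were apart and the lung groups overlapped. Its difference was 2.64 ± 0.56. Timd4, a receptor gene for dead cells, measured 3.38, 4.44 and 2.65 FPKM in H2 livers against 0.796, 2.17 and 1.36 FPKM in control livers, and 0.766, 1.05 and 0.596 FPKM in H2 lungs against 4.70, 2.72 and 1.21 FPKM in control lungs. The groups overlapped in neither organ, and the difference was 1.91 ± 0.44 (adjusted p = 0.139, limma). In the lung Timd4 passed the limit of 1 FPKM through its controls, with a mean of 2.877 FPKM against 0.8027 FPKM in H2 lungs. C1qb, a chain of complement C1q, measured 51.7, 54.3 and 51.8 FPKM in H2 livers against 35.1, 29.2 and 34.6 FPKM in control livers, with overlapping lung groups.

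The genes that define Kupffer cells most closely were too low in the lung to be compared. Clec4f, a lectin of these cells, measured 13.5, 18.6 and 19.2 FPKM in H2 livers against 6.63, 5.83 and 3.85 FPKM in control livers, and at most 0.127 FPKM in any lung. Vsig4, a complement receptor, measured 18.7, 24.9 and 16.0 FPKM in H2 livers against 2.13, 6.91 and 2.85 FPKM in control livers. Both had groups apart in the liver.

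**Figure D5:**
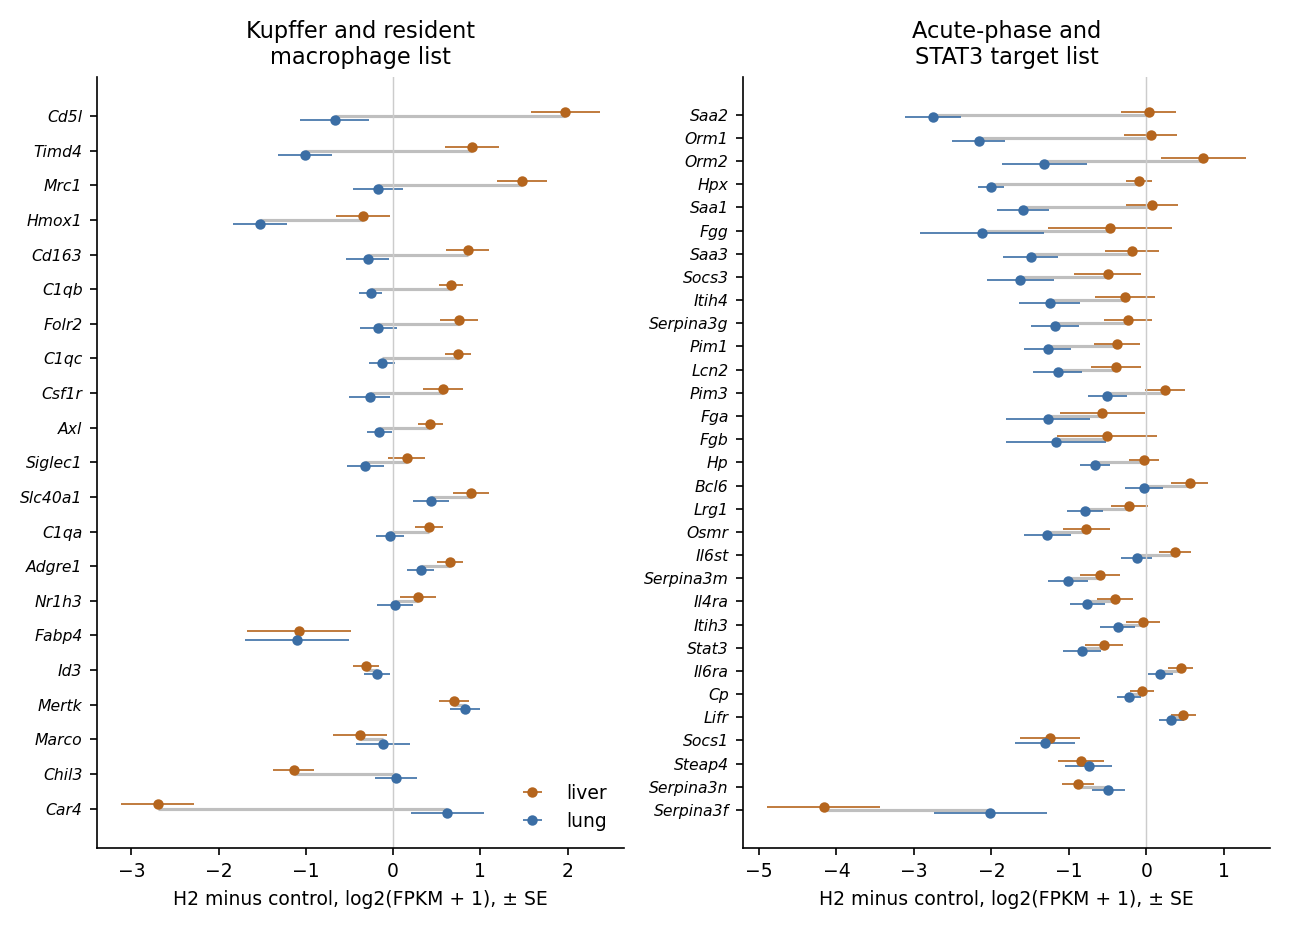
Change with hydrogen (H2 minus control, log2(FPKM + 1), with SE) of each compared member of the Kupffer and resident macrophage list (left) and of the acute-phase list (right), in the liver and in the lung, sorted by difference. In the left panel the liver points mostly lie right of 0 and the lung points near or left of it, and in the right panel the lung points reach −2.75 at Saa2.

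Chemokine genes were lower with hydrogen in both organs by their medians, and on log2(FPKM + 1) more so in the lung. Of 37 listed chemokines and receptors 22 were compared, 19 with a positive and 3 with a negative difference, 5 of them at an unadjusted p under 0.05, all positive. The median change was −0.74 in the liver and −1.34 in the lung. Their median difference was 0.72, and with a pseudocount of 0.1 it was 0.58, with 18 positive and 4 negative. Ccl5 fell in the liver. Ccl6, a chemokine of myeloid cells, measured 62.5, 58.3 and 49.4 FPKM in H2 livers against 20.8, 29.3 and 29.1 FPKM in control livers, and 199.9, 129.5 and 150.1 FPKM in H2 lungs against 566.4, 430.9 and 208.7 FPKM in control lungs. Its groups were apart in both organs, high with hydrogen in the liver and low in the lung, with a difference of 2.32 ± 0.43 (adjusted p = 0.106, limma). Cxcl1, a neutrophil attractant, measured 348.9, 514.4 and 399.4 FPKM in H2 livers against 361.8, 396.8 and 561.9 FPKM in control livers. In the lung it measured 20.9, 15.6 and 12.4 FPKM in H2 libraries against 175.5, 113.8 and 18.1 FPKM in controls. Control lung 3 lay among the H2 lungs for Cxcl1, and the difference was 2.05 ± 0.87.

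Interferon-induced antiviral genes had 28 positive and 1 negative difference among 29 compared, with medians of −0.55 in the liver and −0.95 in the lung, and 3 of the positive ones were at an unadjusted p under 0.05 (7.71% of all genes were, on the positive side). Interferon-gamma GTPase and antigen presentation genes had 19 positive and 7 negative differences among 26, 6 of them at an unadjusted p under 0.05. Tgtp1, a GTPase induced by interferon-gamma, measured 2.60, 1.73 and 3.38 FPKM in H2 lungs against 17.6, 13.3 and 5.19 FPKM in control lungs, with overlapping liver groups. Nlrc5, the activator of major histocompatibility class I genes, fell in the lung to 2.88, 2.39 and 3.31 FPKM in H2 libraries, against 5.97, 5.14 and 5.70 FPKM in controls. Monocyte and recruited macrophage markers had medians of −0.34 in the liver and −0.85 in the lung over 20 genes, 13 with a positive difference. Arg1, an enzyme of alternatively activated macrophages and of the hepatocyte urea cycle, measured 3.92, 3.68 and 3.98 FPKM in H2 lungs against 67.6, 28.02 and 10.9 FPKM in control lungs.

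The 12-gene inflammatory panel, 10 of which could be compared, had a median change of −0.71 in the liver and −1.64 in the lung, with 8 positive and 2 negative differences, and none passed. The scale of log2(FPKM + 1) understates the fold of low genes. The median difference of the panel was 0.79, and with a pseudocount of 0.1 it was 0.50, with 7 positive and 3 negative. Il6, the cytokine that drives hepatic acute-phase transcription, measured 0.158, 0.097 and 0.205 FPKM in H2 livers against 6.28, 0.869 and 4.91 FPKM in control livers, and 2.68, 2.09 and 1.87 FPKM in H2 lungs against 103.5, 27.6 and 4.48 FPKM in control lungs. The groups were apart in both organs, and the difference was 1.09 ± 1.16. The sign of that difference turned to −0.29 with a pseudocount of 0.1. In the liver Il6 passed the limit of 1 FPKM through its controls, with a mean of 4.018 FPKM against 0.1533 FPKM in H2 livers. Il10, an anti-inflammatory cytokine, measured 0.821, 0.077 and 0.164 FPKM in H2 livers against 3.53, 2.64 and 2.07 FPKM in control livers, and 0.716, 0.405 and 0.214 FPKM in H2 lungs against 10.2, 5.70 and 1.42 FPKM in control lungs. Il10 passed the limit through its controls in both organs, and its H2 means were 0.354 FPKM in the liver and 0.445 FPKM in the lung.

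The metallothionein genes Mt1 and Mt2, whose products bind zinc and copper, fell in the lung, and their liver changes did not pass. Mt2 measured 4729, 4779 and 5261 FPKM in H2 livers against 5214, 5501 and 6233 FPKM in control livers. In the lung Mt2 measured 399.3, 560.5 and 376.0 FPKM in H2 libraries against 5106, 3885 and 1164 FPKM in controls. Its liver groups overlapped, its lung groups were apart, and the difference was 2.50 ± 0.58 (adjusted p = 0.139, limma). Mt1 had a lung change of −2.48 ± 0.40, a liver change of −0.31 ± 0.40 and a difference of 2.17 ± 0.57. The liver groups of Mt1 were apart, at 4708.5 to 5037.9 FPKM in H2 livers and 5416.5 to 6773.7 FPKM in control livers. Of all genes 13.4% were lower in H2 livers without overlap. Slc39a8, a zinc importer gene, measured 5.005, 5.85 and 6.96 FPKM in H2 livers against 2.66, 4.68 and 2.13 FPKM in control livers, with overlapping lung groups. Of 18 compared genes of metal handling, 11 had a positive and 7 a negative difference, 7 and 2 of them at an unadjusted p under 0.05.

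Respiratory chain and ATP synthase genes showed small differences with one sign. All 32 were compared and had a positive difference, with a median of 0.30, medians of −0.06 in the liver and −0.36 in the lung, and 11 at an unadjusted p under 0.05. With quantile normalization within each organ the signs were 26 positive and 6 negative, with a median difference of 0.17. In the lung 27 of the 32 had all H2 libraries below all controls (18.5% of all genes did), on values as deposited. The FPKM summed over all genes was itself lower in H2 lungs, at 709826 to 777145 against 824667 to 839264 in control lungs. In the liver the sums were 761319 to 776415 in H2 libraries and 786126 to 827208 in controls. The part of these sums in the list results was not tested. Uqcrq, a subunit of complex III, fell in the lung to 184.5, 163.5 and 148.4 FPKM in H2 libraries, against 272.6, 248.6 and 270.5 FPKM in controls. Uqcrq measured 518.4, 504.2 and 541.2 FPKM in H2 livers against 558.4, 507.1 and 519.8 FPKM in control livers, with overlapping groups. Cytosolic ribosomal protein genes had 34 positive and 1 negative difference, with a median of 0.20. With quantile normalization they had 19 positive and 16 negative, with a median of 0.02. Heart muscle genes moved with these lung groups. Myh6, the cardiac myosin gene, measured 27.96, 14.3 and 21.7 FPKM in H2 lungs against 55.8, 65.7 and 51.5 FPKM in control lungs. The 20 heart, muscle and fat genes summed to 909.7, 395.2 and 547.0 FPKM in H2 lungs against 1109, 1304 and 1992 FPKM in control lungs. The calcium pump gene Atp2a2 of that list fell in the lung (adjusted p = 0.0151). The part of heart or fat tissue in the lung results was not tested.

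Fatty acid oxidation and ketogenesis genes had positive differences in 23 of 26 (52.7% of all genes did), with medians of 0.40 in the liver and −0.06 in the lung. Of the positive ones 6 were at an unadjusted p under 0.05 (7.71% of all genes were, on the positive side). Acat1, which makes acetoacetyl-CoA in mitochondria, measured 160.9, 172.9 and 180.2 FPKM in H2 livers against 67.4, 147.5 and 82.0 FPKM in control livers. Its lung values were 28.9, 28.8 and 28.9 FPKM in H2 libraries and 23.8, 29.2 and 30.5 FPKM in controls. The liver groups were apart, with control liver 2 near the H2 livers, and the difference was 0.81 ± 0.32. NRF2 targets and antioxidant genes had 22 positive and 6 negative differences among 28. Gclm, a subunit of the enzyme that limits glutathione synthesis, measured 30.4, 44.2 and 40.6 FPKM in H2 livers against 18.5, 28.8 and 20.1 FPKM in control livers. Hmox1, which encodes the inducible heme oxygenase, measured 43.8, 38.9 and 39.4 FPKM in H2 lungs against 218.3, 108.2 and 71.5 FPKM in control lungs.

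Lists with as many negative as positive differences, or more, included the immediate early genes, with 8 positive and 15 negative among 23, and the endothelial activation genes, with 8 and 8 among 16. Jun, a subunit of the AP-1 transcription factor, measured 6.49, 5.15 and 6.87 FPKM in H2 livers against 17.5, 9.72 and 9.82 FPKM in control livers, with overlapping lung groups and a difference of −1.18 ± 0.33. Thbd, which encodes the anticoagulant receptor thrombomodulin, measured 3.36, 4.39 and 3.22 FPKM in H2 livers against 12.7, 5.26 and 13.4 FPKM in control livers, and 146.9, 139.3 and 243.5 FPKM in H2 lungs against 70.6, 97.2 and 175.9 FPKM in control lungs. The liver groups of Thbd were apart, the lung groups overlapped, and the difference was −1.89 ± 0.53. Endothelial cell markers had medians of 0.34 in the liver and 0.30 in the lung over 20 genes. Of these, Cd300lg, a receptor of capillary endothelium, rose in both organs. It measured 2.95, 2.65 and 2.81 FPKM in H2 livers against 0.662, 0.606 and 0.53 FPKM in control livers, and 4.16, 4.45 and 4.49 FPKM in H2 lungs against 1.89, 2.21 and 2.41 FPKM in control lungs. In the liver Cd300lg passed the limit of expression through its H2 libraries.

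The other lists with at least 5 compared genes had no gene called for the difference, and their median differences ran from −0.33 (drug and hormone metabolism, 22 genes) to 0.66 (hepatocyte markers, 9 genes). NF-kB and TNF response genes had 22 positive and 6 negative differences among 28, with medians of −0.29 in the liver and −0.76 in the lung. Cytokines and their receptors had 20 positive and 4 negative among 24, with medians of −0.32 and −0.56. The median difference of these genes was 0.36, and with a pseudocount of 0.1 it was 0.13, with 17 positive and 7 negative. Among them Il33, an alarmin of stromal and epithelial cells, had a negative difference of −2.31 ± 0.79. It measured 1.48, 1.60 and 1.65 FPKM in H2 livers against 26.8, 2.85 and 21.8 FPKM in control livers, and 31.8, 34.1 and 45.3 FPKM in H2 lungs against 44.4, 31.0 and 42.3 FPKM in control lungs. The liver groups of Il33 were apart, with control liver 2 near the H2 livers, and the lung groups overlapped.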

How the data were processed

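RNA of the liver and the lung was sequenced 24 h after surgery, with or without inhaled hydrogen, 3 libraries per group. Per the labels' protocols, RNA was taken up with miRNeasy Micro columns, and the kit was TruSeq stranded mRNA. The tools named in the submitters' processing notes are Cufflinks 2.2.1, TopHat2 2.0.13, SAMtools 0.1.19 and Bowtie2 2.2.3, with build mm10. Options and annotation are not given in the sources used here. As values, the authors deposited FPKM per gene symbol, which hold no read counts, so the depth of single values is unknown and no counting intervals are given. The file of control lung 2 holds 1 further column of per-sample values, which was not used. Sample titles gave the groups, since descriptions of H2 replicates 2 and 3 misnumber the gas, which was taken as a slip.

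Values were analysed as log2(FPKM + 1), which understates the fold of low genes, with limma 3.58.1 in R 4.3.3 (1 mean per group, empirical Bayes with trend, two-sided). The spread of a gene was pooled over both organs, so its liver and lung changes share the same SE. P-values were adjusted by Benjamini-Hochberg over the 9551 genes with a mean of at least 1 FPKM in each organ. A gene can pass that limit through the H2 or the control libraries of an organ alone. With 3 against 3 libraries an exact permutation test cannot go below 0.1. The fit was tested on simulated data. The genes, the 35 lists (919 symbols, 909 found) and the tests were chosen with earlier results of these data known. Lists are described by counts and medians, without a test. Named by rule are the called genes, up to 8 per direction, and at most 4 members of each list by p, of which 2 called genes are not reported here. Other genes that are named, including further list members called in 1 organ, the granule and heart genes, those left out of list sums and those of the closing section, were chosen after their values were seen. Gene positions are from GENCODE for mm10, and promoters from RefSeq. Alternatives were other pseudocounts, filters, scalings, weights, replicate blocks, all 18 libraries, and each library left out. Chosen after seeing the data were the fits without the libraries numbered 1 and of each organ alone.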

Additional observations from a re-analysis of the deposited data

Results flagged for a closer look

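With all 12 libraries, the change with hydrogen differed between the liver and the lung by a test of the difference itself in Prtn3, Hpx and Eogt. Housing and gas go together in these groups. Prtn3 differed by 2.94 (log2, liver change minus lung change), with opposite changes in the organs. In the liver Prtn3 passed the limit of expression through its H2 libraries. Hpx differed by 1.91, through the lung. Eogt differed by −1.07, with changes of −0.36 in the liver and 0.70 in the lung. Their adjusted p-values by limma ran from 0.00868 to 0.0430. Prtn3 passed in each of the 12 fits that left out 1 library, Hpx in 7 and Eogt in 3. Without the libraries numbered 1 in all groups, none of them passed.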

How the results depend on the processing

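The count of genes that differed between the organs, 5 as reported, was within 1.5 times with a pseudocount of 5, median-of-ratios scaling, and empirical Bayes without trend or robust. It was 9 with a pseudocount of 0.1, 41 without a filter, 1 with a minimum of 5 FPKM, 8 with quantile normalization, 1762 with array weights (whose fit stopped before convergence), 13 with all 18 libraries and 1 without the libraries numbered 1. The liver count of 118 became 234, 25, 48, 2, 2764, 221 and 6 with pseudocounts of 0.1 and 5, no filter, a minimum of 5 FPKM, array weights, 18 libraries and no libraries numbered 1. The lung count of 15 became 6, 221, 794, 8, 5251, 81 and 1 under those settings, and 30 with robust empirical Bayes. Fitted alone, the liver gave 2 and the lung 0 by limma. With a replicate block by number the difference gave 4, the liver 50 and the lung 10, and with a replicate block by treatment and number the difference gave 8. Correlations of the deviations of same-numbered libraries ran from −0.255 to 0.33, over liver with lung and H2 with control. Organs of the same mouse need not deviate together, so these values cannot decide whether the numbers pair libraries. With 1 library left out, the counts ran from 3 to 625 for the difference, 2 to 2526 for the liver and 1 to 1773 for the lung. Of 137 genes followed over 25 settings, 5 changed sign somewhere, none of them called for the difference, though Maff was called lower in the liver: Il6 (−0.29, pseudocount of 0.1), Maff (0.016, pseudocount of 5), Hopx (−0.00068, quantile normalization), Cxcl2 (−0.34 without control liver 2, −0.47 without control lung 1, and up to 1.66 with other libraries left out) and Tef (0.018, no libraries numbered 1). The cause of these shifts was not tested.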

Other observations

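Genes of liver metabolism were among those that rose or fell in the liver with hydrogen, and the examples below were chosen after their values were seen. Ppp1r3b, which encodes the subunit that brings a phosphatase to glycogen in the liver, measured 25.6, 34.9 and 34.9 FPKM in H2 livers against 7.38, 16.4 and 9.83 FPKM in control livers, and it rose there (adjusted p = 0.0320, limma). Its lung groups overlapped, and its difference of 1.46 ± 0.33 did not pass (adjusted p = 0.139). Glud1, the mitochondrial glutamate dehydrogenase gene, measured 156.6, 195.2 and 185.0 FPKM in H2 livers against 89.5, 123.3 and 88.2 FPKM in control livers, and 53.2, 54.9 and 51.3 FPKM in H2 lungs against 61.5, 59.8 and 56.5 FPKM in control lungs. Sord, which encodes sorbitol dehydrogenase, measured 101.4, 110.7 and 115.7 FPKM in H2 livers against 30.4, 51.0 and 11.0 FPKM in control livers. Some genes of glycolysis stood the other way. Of the 22 compared genes of glycolysis and hypoxia, 2 were called lower in the liver, and the median liver change was −0.26. Pfkfb3, which makes an activator of phosphofructokinase, measured 4.20, 5.62 and 4.99 FPKM in H2 livers against 26.4, 10.02 and 30.02 FPKM in control livers, and Aldoa, an aldolase gene, fell there too. Arrdc4, a regulator of glucose uptake, measured 6.85, 6.86 and 5.71 FPKM in H2 livers against 85.6, 13.1 and 99.4 FPKM in control livers. For all 6 genes named in this paragraph, those that rose and those that fell, control liver 2 was the control nearest to the H2 livers.

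The largest change among the 15 genes called in the lung was that of Ackr1, a chemokine-binding receptor of venular endothelium. It measured 1.79, 0.878 and 0.864 FPKM in H2 lungs against 39.1, 19.6 and 6.41 FPKM in control lungs. In the liver it measured 3.28, 1.52 and 2.18 FPKM in H2 libraries against 5.57, 4.18 and 2.83 FPKM in controls, with overlapping groups. The lung change was −3.10 ± 0.48 (adjusted p = 0.0385, limma) and the difference 2.46 ± 0.68 (adjusted p = 0.186). The SE of the lung change pools the spread of both organs, and no gene passed with the lung fitted alone.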
